A study of Mus musculus with 3 samples.

Results

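This account describes the stretches of the oocyte transcriptome that were present in the oocytes of litters 1 and 2 and low in those of litter 3. The mm9 genome was divided into windows of 1 kb on chromosomes 1 to 19, and the level of each window was the coverage in it expressed as CPM, that is, counts of 72-base alignments scaled to a library total of 1000000. The windows were selected on these measured levels: a window was called depleted when its mean over the 3 litters was 10 CPM or more and its level in litter 3 was at most 1/3 of that in litter 1 and also at most 1/3 of that in litter 2. By this rule 805 of 10299 windows with a mean of 10 CPM or more were depleted, or 7.82%. In all, 300324 windows held at least 1 alignment.

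The oocyte stores RNA made during its growth, and transcription is silent by ovulation, so the RNA of an ovulated oocyte is a maternal store that is read and degraded later. The 3 libraries were 1 for each of 3 litters of wild type ovulated oocytes, all of 1 group. Females of mixed strain background had been superovulated, and oocytes were collected by embryonic day 0.5 and lysed. Every female was LSD1 FL/FL and ZP3::Cre negative: both copies of the gene of the histone demethylase LSD1 were floxed, and the transgene that drives Cre from the promoter of a zona pellucida gene, active in growing oocytes, was absent. Total RNA was amplified with SPIA, an isothermal amplification that copies cDNA many times from a single primer. The number of oocytes per library is not given in the sources used here. In such bulk RNA, fewer cells of a type and less RNA per cell cannot be told apart. The annotation used here is of another genome build than the files, so nuclear windows are given by mm9 position, no gene is named for them, and the labelled cell type was not checked against marker genes.

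Litter 3 stood apart from the others in both directions. Library totals were 35183199 alignments for litter 1, 31787887 for litter 2 and 32028802 for litter 3, from lanes 3, 4 and 8 per the file headers, so litter and lane cannot be told apart. With the same rule written for the other litters, 33 windows (0.32%) were depleted in litter 1 and 80 (0.777%) in litter 2. Windows at least 3-fold above both other litters numbered 773 (7.51%) for litter 3, 15 (0.146%) for litter 1 and 45 (0.437%) for litter 2. Since the rule used all 3 libraries and each litter has 1 library, the values below are descriptions, and no test was made.

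The depleted windows together took up 7.05% of the library of litter 1, 7.38% of that of litter 2 and 1.44% of that of litter 3. Their median level was 23.7 CPM in litter 1, 26.3 CPM in litter 2 and 4.603 CPM in litter 3. The other windows of 10 CPM or more had medians of 19.9, 20.7 and 24.5 CPM. Most depleted windows were of moderate level: their mean over the litters had a lower quartile of 12.7 CPM, a median of 18.0 CPM and an upper quartile of 34.9 CPM, against a median of 21.9 CPM for the others. Litters 1 and 2 were within 2-fold of each other in 732 of the 805 windows, or 90.9%, the share being 91.1% among the other windows. Litter 2 was the higher of the pair in 500 of the 805 windows, and in 4940 of the 9494 other windows. In 73 of the depleted windows litters 1 and 2 were more than 2-fold apart. One of these, chr6:28075001-28076000, stood at 34.5 CPM in litter 1, 0.437 CPM in litter 2 and 0.0312 CPM in litter 3, and so was nearly absent from litter 2 as well. It was chosen after its values were seen.

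**Figure D1:**
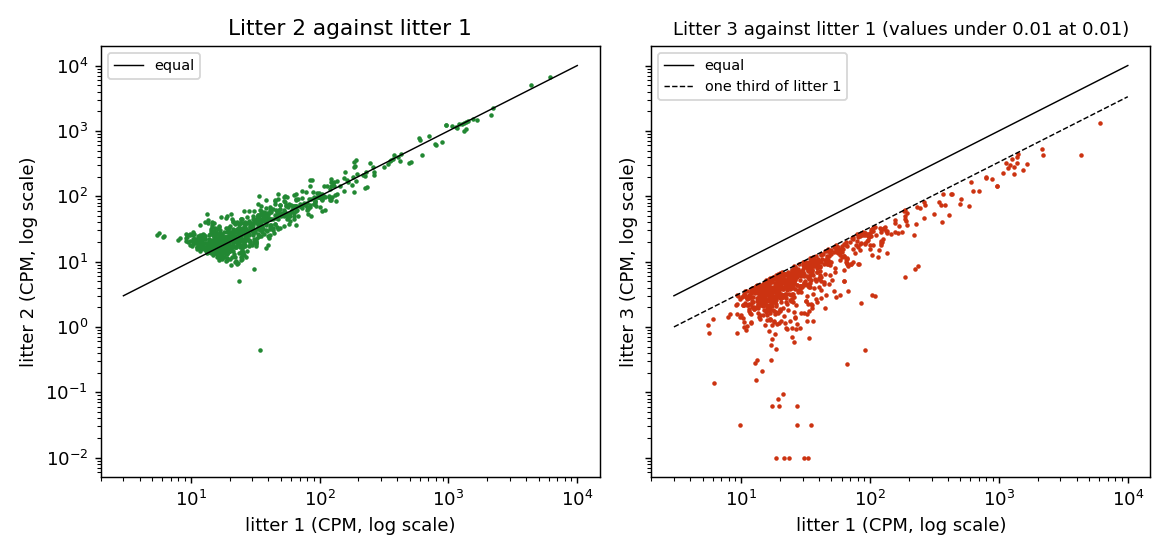
Level of each of the 805 depleted windows in litter 2 (left) and litter 3 (right) against litter 1, in CPM on log axes, 1 point per window. The left cloud lies along the line of equal levels, and the right one lies below the dashed line at 1/3 of litter 1, as the rule requires, with a tail that reaches the 5 windows at 0 CPM in litter 3 (drawn at 0.01).

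Among the 12 highest depleted windows the covered length in litter 1 ranged from 89 to 770 bases. The first by mean level was chr17:39983001-39984000, at 6115 CPM in litter 1, 6692 CPM in litter 2 and 1332 CPM in litter 3 (4713 ± 2942, SD, n = 3). In this window 61.8% of alignments lay in runs of start positions whose counts recur exactly at another place of the genome. The next was chr6:3150001-3151000, at 4342, 4962 and 434 CPM in litters 1, 2 and 3. It had 66.9% of alignments in such runs and belongs with the first to 1 group linked by them, so these windows are not independent. Its reads covered 240, 238 and 237 bases and began at 238, 238 and 237 positions, so nearly every covered base was a start in every litter. Litter 3 thus used nearly all the positions at a level 10-fold lower than litter 1, the lower of the other litters. It still had 19368 alignments that began there, many per position, so a loss of positions could hardly show.

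The window chr2:73706001-73707000 stood at 2211, 2217 and 434 CPM. It was covered over 89, 89 and 87 bases, with 18, 18 and 13 start positions inside it. The window chr18:54858001-54859000 stood at 2141, 1750 and 526 CPM, and chr2:5300001-5301000 at 1652, 1485 and 310 CPM. These last windows belong to 1 group linked by recurring runs, described further on, so they are in part the same reads. Runs that recur anywhere in the genome held 36.5% and 33.1% of their alignments.

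The remaining 7 of the 12 highest windows had levels between 1075 and 1543 CPM in litters 1 and 2 and between 222 and 442 CPM in litter 3. Among them, chr9:118584001-118585000 (1543, 1509 and 249 CPM) had 6.05-fold less in litter 3 than in the lower of the other litters, and none of its reads lay in recurring runs (0%). The window chr5:140320001-140321000 (1417, 1420 and 442 CPM) was 3.21-fold lower, with start positions at 120, 119 and 120 of its 120, 119 and 120 covered bases. The others were chr12:71031001-71032000, chr11:62366001-62367000, chr8:87635001-87636000, chr11:62365001-62366000 and chr3:120952001-120953000. In each of the 12 the levels of litters 1 and 2 were nearer to each other than to that of litter 3. The last of them, on chromosome 3, belongs to the same linked group as the windows on chromosomes 18 and 2 at 54858001 and 5300001. Both windows on chromosome 11, with 82.9% and 94.7% of alignments in recurring runs, belong to another linked group. The windows chr8:87635001-87636000 and chr2:73706001-73707000 belong to a further one. The 12 windows are therefore not all independent of one another.

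**Figure D2:**
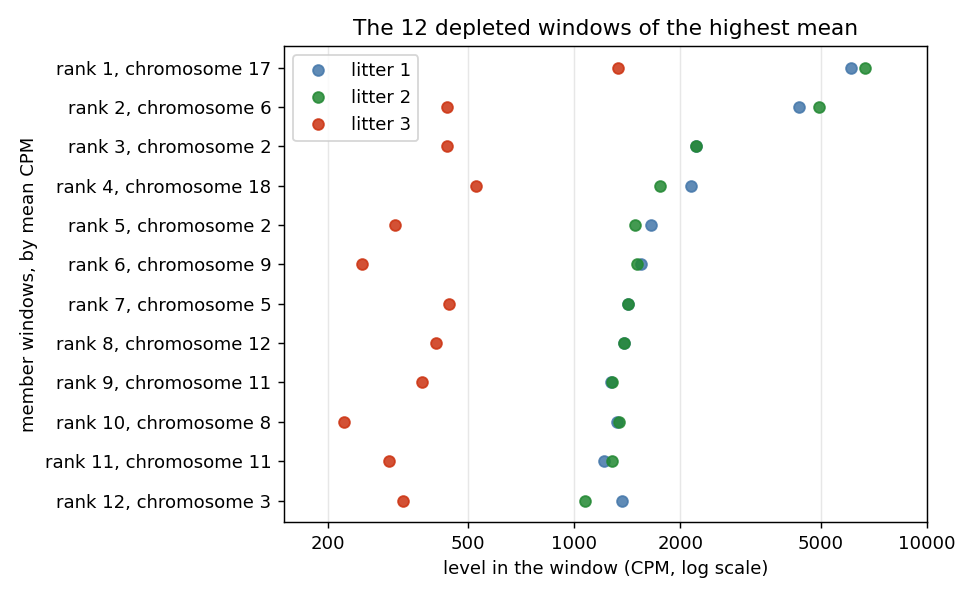
Level in CPM (log axis) of the 12 depleted windows with the highest mean, 1 row per window and 1 point per litter. The points of litters 1 and 2 lie near each other between 1075 and 6692 CPM, and those of litter 3 lie between 222 and 1332 CPM.

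Few depleted windows were absent from litter 3. The ratio of litter 3 to the lower of the other litters was 0 in 5 windows, above 0 and up to 0.01 in 9, from 0.01 to 0.05 in 22 and from 0.05 to 0.1 in 51. It was from 0.1 to 0.2 in 223 windows, from 0.2 to 0.25 in 166 and from 0.25 to the threshold in 329, or 40.9% of all.

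The windows at 0 in litter 3 can only be given a bound. With 3 alignments taken as the most that a count of 0 allows, which is 0.0937 CPM in litter 3, chr10:67705001-67706000 (32.9 and 48.0 CPM in litters 1 and 2) was at least 352-fold lower. By the same bound chr10:67557001-67558000 (21.6 and 30.8 CPM) was at least 230-fold lower and chr15:99640001-99641000 (23.5 and 19.6 CPM) at least 210-fold. For chr10:67556001-67557000 (18.6 and 23.7 CPM) the bound was 198-fold, and for chr1:51917001-51918000 (30.8 and 7.61 CPM) it was 81.3-fold. The window chr10:67558001-67559000 held 1 alignment in litter 3 against 960 and 1524 in litters 1 and 2, a ratio of 874 on the CPM scale with the lower of them (95% exact interval 156 to 34554). Copies made by amplification are not independent molecules, so these bounds and intervals cover counting error only.

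At the threshold the values run on without a gap. The last windows inside it were chr18:14583001-14584000 (16.4, 20.4 and 5.46 CPM), chr5:67078001-67079000 (78.8, 117 and 26.3 CPM) and chr13:23623001-23624000 (109, 100.4 and 33.4 CPM), each 3.00-fold lower in litter 3. The first outside were chr11:50195001-50196000 (8.81, 30.5 and 2.94 CPM), chr1:148572001-148573000 (22.3, 18.1 and 6.05 CPM) and chr7:13929001-13930000 (70.4, 81.7 and 23.5 CPM).

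Depleted windows held fewer start positions per window than other windows of equal mean, over a shorter covered length. A start position is a base at which at least 1 alignment begins, with strands not told apart. Reads that begin at many positions come from many different fragments, and reads piled on few positions can be copies of few. Between 10 and 20 CPM, the 446 depleted windows had a median of 102.5 start positions in litter 1, 101 in litter 2 and 49 in litter 3, against 127, 116 and 128 in the 4364 others. Between 40 and 80 CPM the 97 depleted windows had 157, 151 and 114, against 243, 231 and 257. At 160 CPM and more, the 45 depleted windows had 178, 184 and 176, against 408, 387.5 and 413. The difference was thus present in litters 1 and 2, where these windows held more alignments than the others. It was seen in each of the 5 classes of mean level, and 549 of the 805 windows, or 68.2%, had fewer start positions, as the mean of litters 1 and 2, than the median of the others in their class. The covered length in litter 1 was shorter too, with medians of 313.5 against 481 bases between 10 and 20 CPM. At 160 CPM and more these medians were 293 against 732 bases. Start positions were not counted per covered base, so these counts do not show sparser starts within the covered part.

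**Figure D3:**
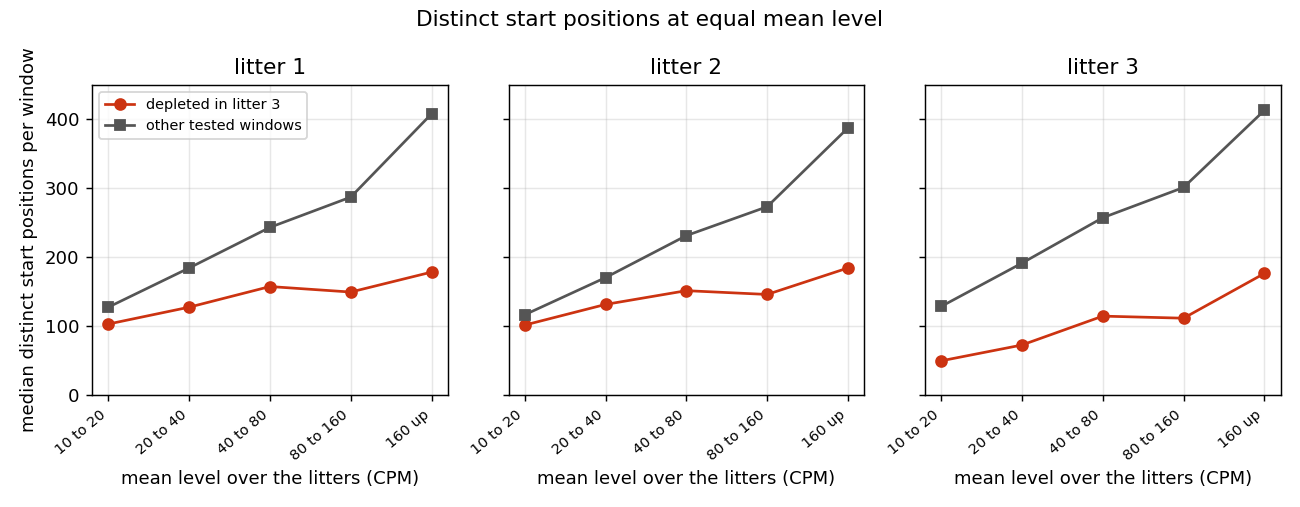
Median number of distinct start positions per window in 5 classes of mean level (CPM), for the depleted windows and the other windows of 10 CPM or more, 1 panel per litter. In litters 1 and 2 the depleted windows run from about 101 to 184 positions while the others run from 116 to 408, and in litter 3 the depleted windows begin at 49.

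Alignments were accordingly piled higher on each position. In litter 1 the median number of alignments per start position was 5.62 in depleted windows and 3.17 in the others between 10 and 20 CPM, 16.2 and 6.64 between 40 and 80 CPM, and 146 and 23.0 at 160 CPM and more. In litter 3 the order was the opposite in every class, from 1.85 against 3.38 between 10 and 20 CPM to 28.5 against 29.7 at 160 CPM and more. At equal mean over the 3 litters, the rule itself selects for more alignments in litters 1 and 2 and fewer in litter 3. Both the higher values in litter 1 and the opposite order in litter 3 are thus in part set by the selection. The single most used position held a median of 5.80%, 5.76% and 6.40% of a window's alignments in litters 1, 2 and 3, against 4.43%, 4.55% and 4.50% in the other windows.

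The same was seen when windows were set side by side at an equal count within 1 library. With 400 to 800 alignments in litter 1, 331 depleted windows had a median of 104 start positions (quartiles 71 and 163.5) and 3244 others had 154 (103 and 204). With 800 to 1600 alignments the medians were 118.5 and 207. In litter 3, where the depleted windows hold few alignments, 269 of them with 100 to 200 alignments had a median of 64 start positions against 71 in 282 others, and with 50 to 100 alignments the depleted windows had the more, 43 against 31. In litters 1 and 2 the depleted windows had the fewer start positions also at 200 to 400 alignments, with medians of 108 against 116 in litter 1 (43 depleted windows) and 84 against 112 in litter 2 (36 depleted windows). Below 200 alignments those litters had at most 4 depleted windows in a class, again with the lower medians. The order was thus turned around in litter 3 at 50 to 100 alignments and in no other class from 50 to 3200. At so low a count in litter 3, a window of 10 CPM or more generally escapes the rule only if litters 1 and 2 differ widely. The 37 others in that class are therefore a selected set.

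Most of the fall in litter 3 lay in alignments per position, not in positions. A base counts as at most 1 position however many alignments begin there, so this split is in part set by depth. It was computed for the depleted windows only. In the 793 depleted windows with a start in every litter (the remaining 12 had none in at least 1 litter), the number of alignments in litter 3, scaled to the library totals, differed from the geometric mean of litters 1 and 2 by a median of -2.35 on the log2 scale. The number of start positions differed by -0.77 and the alignments per position by -1.66. Start positions accounted for the larger share of the fall in 180 windows, or 22.7%, and 29 windows had no fewer start positions in litter 3. The balance moved with the level: the median log2 difference of start positions was -1.05 between 10 and 20 CPM and -0.10 at 160 CPM and more, while that of alignments per position was -1.45 and -2.01.

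The number of positions in litter 3 was close to that calculated for a thinned litter 1 or 2. When the alignments of litter 1 in each window were thinned by calculation to the number in litter 3, the number of start positions observed in litter 3 was a median of 1.03 times the expected one (quartiles 0.941 and 1.16, 780 windows). With litter 2 as the source it was 1.03 times (0.952 and 1.17). The same ratio was 1.03 in 4427 other windows that held more alignments in litter 1 than in litter 3, and 1.01 in the depleted windows when the larger of litters 1 and 2 was thinned to the smaller. Most positions used in litter 3 were also used in litter 1 or 2. In the median depleted window, 79.5% of the start positions of litter 1 were used in litter 2 and 45.9% in litter 3, and 89.2% of those used in litter 3 were used in litter 1 or 2. In the other windows these shares were 70.4%, 70.1% and 78.8%. By the rule, litter 3 holds the fewest alignments in the depleted windows, so these differences are in part set by the selection. The overlap expected from depth was not computed.

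The call depended on counting every alignment. When each start position was counted once, 717 of the 805 windows still had a mean of 10 CPM or more. Of the 805, 740 (91.9%) were still lower in litter 3 than in both others, against 37.4% of all windows of 10 CPM or more on that scale. The median difference shrank to 1.67-fold, and 73 of the 805 windows (9.07%) still met the rule. That count caps each base at 1 alignment, so a window whose positions are all in use cannot fall far.

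The covered part of depleted windows was short. In litter 1 they were covered over a median of 325 bases of the 1000, in litter 2 over 315 and in litter 3 over 284, against 556, 533 and 553 in the other windows. At most 500 bases were covered in 572 depleted windows, or 71.1%, against 45.0% of the others and 48.3% of the 773 windows raised in litter 3. At least 900 bases were covered in 5.84% against 18.2% of the others and 12.3% of the raised windows. A covered island, meaning neighbouring bases covered without a break in any litter, was short too. The longest island touching a depleted window had a median of 310 bases (quartiles 188 and 664), against 681 (275 and 1293) for the others and 692 (290 and 1268) for the raised windows. Among windows with no recurring runs the medians were 278 bases for 611 depleted windows and 708 for 6952 others.

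**Figure D4:**
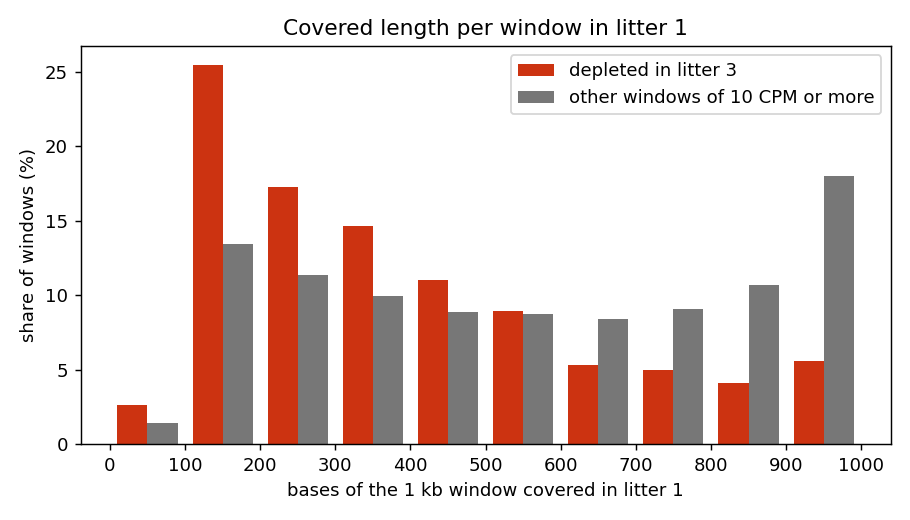
Share of windows (%) by the number of bases of the 1 kb window covered in litter 1, in steps of 100 bases, for the 805 depleted windows and the 9494 other windows of 10 CPM or more. The depleted windows peak at 100 to 200 bases with 25.5%, and the others are most frequent at 900 to 1000 bases with 18.0%.

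Some depleted windows repeat one another. A read that aligns equally well to several places can be reported at each, and such copies show as runs of 3 start positions with at least 50 alignments whose counts in all 3 litters and spacing recur elsewhere. Over 50% of alignments lay in such runs in 92 depleted windows (11.4%), against 9.34% of the other windows, and 611 (75.9%) had none, against 73.2%. The share was thus close to that of the other windows. Runs shared between depleted windows linked 150 of them into 36 groups, so that 691 remain if each group is counted once. The shared runs are a small part of some linked windows, as in chr2:73706001-73707000 and chr8:87635001-87636000. There, runs that recur anywhere in the genome held 0.349% and 0.589% of alignments.

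The largest group joined 19 windows, of which 15 lay on chromosome 13, 3 on chromosome 3 and the other one on chromosome 9. Their levels ranged from 16.7 to 52.7 CPM with a median of 33.2 in litter 1, from 19.3 to 98.7 CPM with a median of 39.6 in litter 2, and from 1.85 to 9.59 CPM with a median of 4.31 in litter 3. Litter 3 was below every value of litters 1 and 2 in the group. Examples at nearly the same levels are chr13:21808001-21809000 (33.0, 39.6 and 4.31 CPM), chr13:22134001-22135000 (33.2, 39.6 and 4.31 CPM), chr13:23662001-23663000 (33.0, 39.6 and 4.31 CPM) and chr13:23843001-23844000 (33.0, 39.4 and 4.31 CPM). On chromosome 3 the windows chr3:96024001-96025000 (41.8, 62.7 and 2.80 CPM), chr3:96043001-96044000 (44.9, 84.7 and 1.95 CPM) and chr3:96049001-96050000 (52.7, 98.7 and 3.50 CPM) belonged to the same group and were lower in litter 3 than those examples. Some windows of the group on chromosome 13 were as low in litter 3, such as chr13:23626001-23627000 at 1.85 CPM. Another, chr13:51298001-51299000 (45.2, 87.2 and 3.12 CPM), lies far from the group's other windows on that chromosome. A group of 8 windows, all on chromosome 13, interleaved with the group of 19, with medians of 96.8, 89.3 and 29.1 CPM. As background, the mouse carries many near-identical copies of its histone genes in a large cluster on chromosome 13 and a smaller one on chromosome 3. The windows were not matched to an annotation, so whether they hold histone genes was not tested.

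Other groups were spread over many chromosomes. One of 14 windows on 9 chromosomes had medians of 17.9 CPM in litter 1, 22.1 CPM in litter 2 and 4.46 CPM in litter 3. One of 11 windows on 10 chromosomes had medians of 85.5, 50.5 and 3.00 CPM, its highest window being chr10:127985001-127986000 at 235, 139 and 8.43 CPM. One of 9 windows on 9 chromosomes, with medians of 888, 675 and 198 CPM, holds 3 of the 12 highest windows. The group closest to 0 in litter 3 had 5 windows on 4 chromosomes, at medians of 23.5, 19.7 and 0.0624 CPM, and holds chr15:99640001-99641000 named above and chr5:115553001-115554000 (90.5, 75.7 and 0.437 CPM). The windows of a group share reads in part and are not independent of one another.

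Depleted windows were found on all 19 chromosomes tested. Chromosome 13 had the highest share, with 61 of its 466 windows of 10 CPM or more depleted, or 13.1% (95% Wilson interval 10.3 to 16.5). It was followed by chromosome 10 with 46 of 480, or 9.58% (7.26 to 12.5), and chromosome 6 with 60 of 648, or 9.26% (7.26 to 11.7). The lowest shares were on chromosome 1 with 44 of 766, or 5.74% (4.31 to 7.62), chromosome 16 with 18 of 285, or 6.32% (4.03 to 9.76), and chromosome 14 with 27 of 422, or 6.40% (4.43 to 9.15). The interval of chromosome 13 lay above the genome-wide 7.82% and that of chromosome 1 below it, while those of the others included it. These intervals treat linked and neighbouring windows as separate. They make no allowance for picking the highest and lowest of 19 chromosomes. Where an interval lies against 7.82% is therefore a description and not a test. On chromosome 13, 29 of the 61 depleted windows belonged to linked groups, and without them the share was 7.32%. The genome-wide 7.82% keeps the linked windows and was not recomputed without them, so it is not a like value to set beside this share.

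Most depleted windows stood alone. Joined where at most 5 kb apart, they formed 676 stretches of 1 window, 46 of 2, 9 of 3, 1 of 4 and 1 of 6. Another depleted window lay within 5 kb of 129 of them, or 16.0%. The same was true of 5.74% of the other windows of 10 CPM or more, and 3.36% of the windows raised in litter 3 had a depleted window that near. Depleted windows also had fewer well-covered neighbours of any kind, with another window of 10 CPM or more within 5 kb in 51.7% against 62.4% of the others. Windows raised in litter 3 were near each other about as often, with 16.7% having another within 5 kb.

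The stretch with the most depleted windows was chr10:67556001-67565000, which spans 9 kb. Its 6 windows of 10 CPM or more were all depleted and held 188 CPM in litter 1, 215 CPM in litter 2 and 1.06 CPM in litter 3, or 6616, 6826 and 34 alignments, none in recurring runs (0%). With the window at 67705001 named above, a region of 150 kb on chromosome 10 held 7 windows of 10 CPM or more, and all 7 were depleted. The region had 12 windows with a mean of 1 CPM or more, these 7 included, and the weaker ones were also at most 1/3 of both other litters in litter 3. Its edges are those of depleted windows. Among the stretches listed here it had the lowest ratio of litter 3 to the lower of the other litters, 0.00565.

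The next 5 stretches, by number of depleted windows and then by summed level, had ratios from 0.126 to 0.298. The 4 windows of chr13:22127001-22135000 held 168, 173 and 42.3 CPM in litters 1, 2 and 3, and the 3 of chr13:23838001-23850000 held 164, 164 and 42.0 CPM. Recurring runs held 68.3% and 83.8% of their alignments. On chromosome 5, chr5:90048001-90051000 held 835, 821 and 103 CPM over 3 neighbouring windows, with 79.9% in recurring runs. A second stretch there, chr5:125866001-125869000, held 716, 625 and 121 CPM with 87.0%. Unlike most depleted windows, the middle window of each was covered over all 1000 bases in every litter. In chr9:20716001-20727000, which held 192, 161 and 48.0 CPM and no recurring runs (0%), 3 of 7 windows of 10 CPM or more were depleted.

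Loci with several windows were seldom depleted throughout. Windows of 10 CPM or more at most 5 kb apart formed 6227 loci, of which 3957 held 1 such window. A depleted window was held by 728 loci, 389 of them with no other window of 10 CPM or more. Counted by window, 48.3% of the depleted windows were alone in their locus, against 38.4% of all windows of 10 CPM or more. Of the loci with a depleted window, 172 had 3 or more windows. Among these, 140 had a single depleted window, the median share of depleted windows was 33.3%, and 5 were depleted in every window. Since these loci were chosen for holding a depleted window, the share in a locus of 3 windows cannot be below 33.3%. Over all windows of 10 CPM or more it was 7.82%. The 172 loci held 528 windows that were not depleted. These were nonetheless lower in litter 3 than in both others in 277 cases, or 52.5%, against 35.9% over all 9494 windows that were not depleted. Their median log2 difference between litter 3 and the other litters was -0.24, against 0.19 over the 9494. Both values used a pseudocount of 0.5 CPM.

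Windows around the depleted ones were often low in litter 3 too. Of the 530 adjoining windows with a mean of 1 CPM or more that were not depleted themselves, 339 (64.0%) were lower in litter 3 than in both others, against 39.7% of all such windows. Windows with a mean of 1 to 10 CPM could not enter the set, whatever their ratio. Next to a depleted window 330 such windows were found, and 218 (66.1%) were lower in litter 3 than in both others, against 40.6% of all 39657 windows of that level. A level in litter 3 of at most 1/3 of both others was found in 99 of the 330 (30%), against 14.9% of all. Reads across a border count in both adjoining windows, and at 2 kb, where no read reaches, the shares were 56.8% and 20.3% of 236 windows. They stayed at 52.9% and 18.5% of 119 windows at 10 kb and 59.2% and 26.4% of 125 windows at 15 kb, and were 42.2% and 10.8% of 83 windows at 30 kb. The shares at 20 kb were 51.1% and 16.7% of 90 windows. At 1 to 10 CPM, the share below both others was thus above that of all windows at each distance computed up to 20 kb. It was near that share at 30 kb. Windows of 10 CPM or more that were not depleted had 60.5% of 200 at 1 kb and 41.7% of 48 at 10 kb. They had 32.6% of 46 at 15 kb and 35.7% of 42 at 20 kb, against 35.9% of all such windows. Linked copies can appear in these counts more than once.

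**Figure D5:**
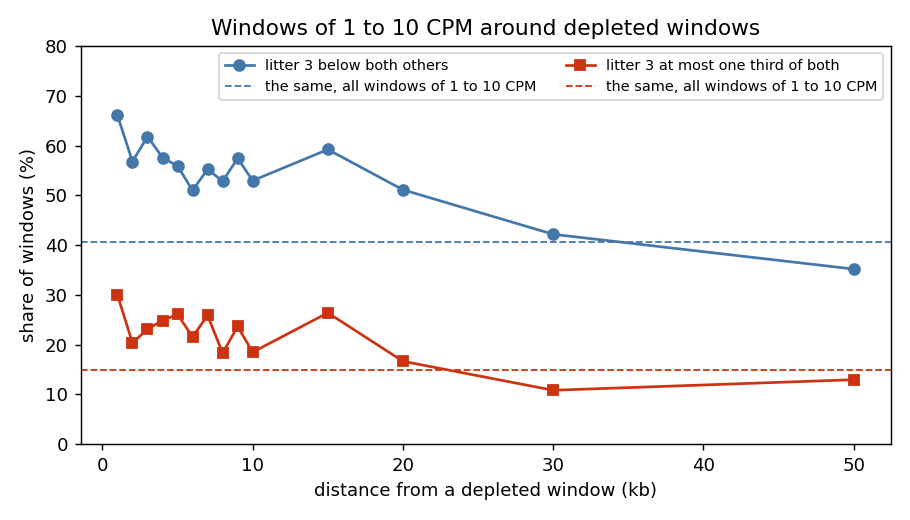
Share of windows with a mean of 1 to 10 CPM (%) that were below both other litters in litter 3 (circles), or at most 1/3 of both (squares), by distance in kb from a depleted window. The dashed lines are the shares over all 39657 windows of that level, 40.6% and 14.9%, and the curves start at 66.1% and 30%, and at 30 kb they are at 42.2% and 10.8%.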

How the data were processed

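Each deposited file holds the read coverage (signal) of 1 library, given as unscaled alignment depth over genomic intervals. Per the submitters' processing notes, the authors aligned reads with Bowtie to mm9, and per the file headers each track comes from the sorted alignments of 1 lane. Its version and its settings for reads with several matches are unknown here, and a read reported at several places counts at each. Isolated blocks at a depth of 1 were all multiples of 72 bases, so alignments were taken as 72 gapless bases. Start positions were recovered from the steps in depth, with 0 negative values and 0 gaps. The recovery, the rule and the search for recurring runs were tested on simulated data. Total alignments per library were 31787887 to 35183199, so 10 CPM is over 300 alignments.

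Coverage was summed in 1 kb windows with Python 3.11.15, NumPy 2.4.6, pandas 2.3.3 and SciPy 1.17.1. With 1 group and 1 library per litter, no test was run. Other windows of equal mean were all windows of the same class (10, 20, 40, 80 and 160 CPM as lower bounds). The windows named are the 12 highest, the 6 stretches with the most depleted windows (ties by summed CPM), the 6 lowest ratios, 3 on each side of the threshold, and the 3 chromosomes with the highest and the lowest share, besides the examples of linked groups, which were chosen after their values were seen. The members, classes and alternatives were chosen with earlier results of these data known. Gene names and sequences were not analysed here, and base composition was not either.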

Additional observations from a re-analysis of the deposited data

How the results depend on the processing

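Of 59 alternatives over 5 results, 32 left the value within its 95% Wilson interval or, for the number of windows, within 1.5 times. The 805 depleted windows became 1569 at a minimum mean of 5 CPM, 359 at 20 CPM, 1589 with litter 3 at most 1/2 of the others and 476 with at most 1/4. Without a replicate they were 795 to 1075, and with each start position counted once 740, of which 73 were among the 805. With recurring positions left out, 718 of the 805 were again among 1070. The share with another depleted window within 5 kb, 16.0%, became 18.9% at 5 CPM, 22.9% at 1/2, 11.97% at 1/4, 11.6% with starts counted once and 15.8% to 20.7% without a replicate, and 11.3% within 2 kb or 21.6% within 20 kb. The share with fewer start positions than others of equal mean, 68.2%, became 58.4% at 5 CPM, 75.8% at 20 CPM, 63.1% at 1/2, 55.4% to 61.1% without a replicate and 76.9% when matched on litters 1 and 2. The share whose fall lay more in start positions, 22.7%, became 42.6% at 5 CPM, 5.93% at 20 CPM, 25.8% at 1/4, 26.8% with 2 kb windows, 31.2% without recurring positions and 17.3% to 18.3% without a replicate. The share of adjoining windows of 1 CPM or more below both others, 64.0%, became 56.5% at 1/2, 68.1% at 1/4 and 58.5% up to 5 kb away, and was 66.7% to 67.7% without a replicate. For shifts that the settings do not fix themselves, the cause was not tested. Leaving out litter 3 gives no value, since the rule is about it. No paired analysis was possible because all 3 libraries form 1 group. Depth limits the ratio of windows with a few alignments in litter 3.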

Other observations

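The rule covers chromosomes 1 to 19. On the X chromosome, 30 of 470 windows with a mean of 10 CPM or more met it, or 6.38%, and on the mitochondrial chromosome 0 of 17 did, with no test made. Among sequence not placed on a chromosome's map, it was met by 2 of 16 windows of chromosome 13, 1 of 27 of chromosome 1, 1 of 7 of chromosome 8 and 1 of 4 of the X chromosome. It was met by 0 of 46 windows of sequence assigned to no chromosome, and by 0 of those of the other sequences, with at most 11 windows each.

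A window raised in litter 3 lay within 5 kb of 25 of the 805 depleted windows, or 3.11%, against 8.44% of the other windows of 10 CPM or more. In 32 of the 728 loci with a depleted window, another window was raised in litter 3. Start positions numbered under 20 over all litters in 12 of the 805 depleted windows and in 48 of the 9494 others.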
